A study of Homo sapiens with 8 samples.

Results

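The E2F transcription factors E2F1, E2F2, E2F3, E2F7 and E2F8, the RB family genes RB1, RBL1 and RBL2, and the genes of the later cell-cycle factors FOXM1 and MYBL2 were followed across RNA sequencing of 2 human lung cancer lines. These 10 genes were taken by symbol, and each was found once in both count tables, among 46427 listed genes in NCI-H1944 and 61271 in NCI-H647. Both are established lines and every library carries the label WT for genotype. In each line, MPS1i cells received 100 nM BAY-1217389, an inhibitor of the mitotic checkpoint kinase MPS1, for 48 hours, and RNA was taken 24 hours after the drug was washed out. DMSO cells had the vehicle on the same schedule. Each of the 4 groups holds 2 libraries, and nothing in the labels says that the replicates were separate cultures, so p-values measure the spread between these libraries, which may be technical.

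E2F1, E2F2 and E2F3 activate genes needed for entry into S phase, and RB1 protein holds them in check until cyclin-dependent kinases phosphorylate it. RBL1 and RBL2 encode p107 and p130, which with E2F4, a DP subunit and the MuvB core form the DREAM complex, a repressor of cell-cycle genes in resting cells. MYBL2 encodes B-MYB, which binds the MuvB core once p107 and p130 have left, and FOXM1 joins later to drive genes of G2 and mitosis. E2F7 and E2F8 are atypical E2Fs that repress E2F targets without a DP partner. Several of the 10, among them E2F1, E2F2, E2F7, E2F8, RBL1 and MYBL2, are themselves known E2F targets, and their RNA is known to be highest in dividing cells.

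Promoter letters are given first, since E2F sites are the known basis of such feedback. Printed are E2F1, E2F2, E2F3 and RBL1, which held the E2F letters searched, and MYBL2, which did not. The windows of E2F7, RBL2 and RB1, without these letters, are not printed. RefSeq promoter sequences (GRCh38.p14) of 300 bases, from 250 before to 50 after the transcription start, were matched for 8 of the 10 genes by symbol. FOXM1 and E2F8 were without an entry, the entry of RB1 lies at a start inside the gene, and E2F3 and RBL2 had 2 entries each. Each line below runs 5′ to 3′ on the gene's strand, from 80 bases before to 20 after the start. Capitals mark the E2F letters searched, which were TTTCCCGC, TTTCGCGC, TTTGCCGC and TTTGGCGC on either strand.
E2F1 (chr20:33686366-33686465, minus strand): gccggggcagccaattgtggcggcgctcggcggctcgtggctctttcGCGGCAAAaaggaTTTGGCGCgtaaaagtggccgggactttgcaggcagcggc
E2F2 (chr1:23531214-23531313, minus strand): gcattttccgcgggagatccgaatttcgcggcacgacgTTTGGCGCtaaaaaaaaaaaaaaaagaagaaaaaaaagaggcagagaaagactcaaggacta
E2F3 (chr6:20401799-20401898, plus strand): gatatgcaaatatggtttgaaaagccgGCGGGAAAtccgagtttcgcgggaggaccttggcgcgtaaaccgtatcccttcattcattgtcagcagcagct
RBL1 (chr20:37095978-37096077, minus strand): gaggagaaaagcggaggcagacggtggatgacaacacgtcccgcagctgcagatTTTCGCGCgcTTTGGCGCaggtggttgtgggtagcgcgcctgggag
MYBL2 (chr20:43667034-43667133, plus strand): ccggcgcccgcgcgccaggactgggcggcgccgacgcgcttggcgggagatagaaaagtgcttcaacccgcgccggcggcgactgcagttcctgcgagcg

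E2F1 and RBL1 each held 2 matches, beginning 33 and 20 bases before the start in E2F1 and 26 and 16 bases before it in RBL1. E2F2 held 1 match, 42 bases before the start, and E2F3 held 1, 53 bases before it. Thus 4 of the 8 genes with an entry held the E2F letters in at least 1 entry, the second entry of E2F3 having none. Counted by promoter, 3.31% of 35116 held them. MYBL2, E2F7, RBL2 and the RB1 entry held no match, which says only that these letters are not in the windows. TTTGAA, the core of the CHR element through which MuvB complexes bind, was searched on both strands too. It lay 65 bases before the start of E2F3 and at base 25 after 1 start of RBL2, and in 15.2% of all promoters.

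In NCI-H1944, FOXM1, MYBL2, E2F2 and RBL2 were lower after the inhibitor and none of the 10 was higher. In NCI-H647, MYBL2, RBL1, E2F8, E2F2, FOXM1 and RBL2 were lower and E2F3 was higher. The largest change was that of MYBL2 in NCI-H647, 1.71-fold lower. E2F1, E2F7 and RB1 did not pass the test in either line. All 10 genes passed the low-count filter in both lines. The test was edgeR's quasi-likelihood test with Benjamini-Hochberg adjustment over all genes of the line and a threshold of 0.05. It called 26.0% of 16738 genes in NCI-H1944, 12.4% as lower, and 54.4% of 15049 in NCI-H647, 27.0% as lower and 27.3% as higher. Against these shares, 4 of the 10 were called in NCI-H1944, all lower, and 7 in NCI-H647, 6 of them lower. The median log2 fold change of the 10 was -0.14 in NCI-H1944 and -0.46 in NCI-H647, beside 0.00 and 0.01 over all genes tested. Levels below are CPM, each gene's count relative to the library size scaled by TMM factors, and changes are log2 fold changes of MPS1i over DMSO ± the standard error of the fit. A fall in such a culture may be fewer cells with the RNA or less RNA per cell, which cannot be told apart here.

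**Figure D1:**
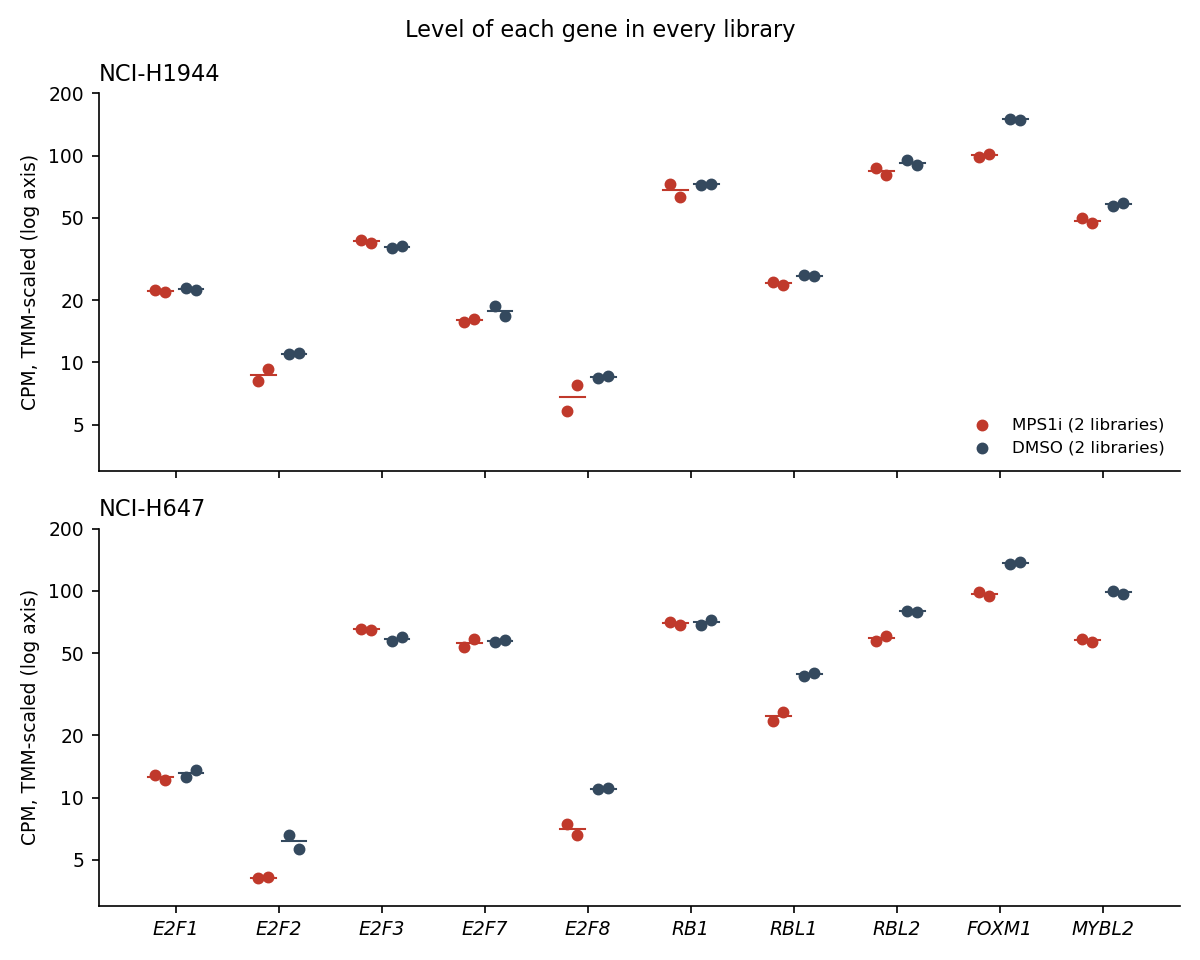
Level of each of the 10 genes in every library, in CPM with TMM scaling on a log axis, NCI-H1944 above and NCI-H647 below, MPS1i libraries (red) left of DMSO libraries (dark). Points are libraries and short bars are means of 2. FOXM1 lies lower after the inhibitor in both lines, while RBL1 and MYBL2 are set apart most widely in NCI-H647.

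Libraries held 38904473 to 43661342 counts in NCI-H1944 and 13358514 to 19550859 in NCI-H647, so a low gene rests on fewer counts in NCI-H647. Of the epithelial genes, KRT8 ran from 2199 to 2735 CPM in NCI-H1944 and from 178 to 243 CPM in NCI-H647. KRT18 ran from 1582 to 1842 CPM and from 205.5 to 264.1 CPM. KRT19 was at 0 in every NCI-H1944 library and at 7.725 to 10.63 CPM in NCI-H647. CDH1 ran from 33.32 to 39.45 CPM in NCI-H1944 and was at most 0.664 CPM in NCI-H647. EPCAM was low in both, at 1.904 to 2.962 CPM in NCI-H1944 and 4.427 to 5.153 CPM in NCI-H647. The leukocyte gene PTPRC was at 0 in NCI-H1944 and at most 0.417 CPM in NCI-H647. Of the endothelial genes in NCI-H647, CDH5 reached 28.5 CPM, PECAM1 at most 4.796 CPM and VWF at most 0.177 CPM. Of the fibroblast genes, DCN ran from 14.3 to 21.3 CPM in NCI-H1944 and was at most 0.218 CPM in NCI-H647, and COL1A1 was at most 6.83 CPM in NCI-H1944 and 17.2 CPM in NCI-H647. TTK, the gene of MPS1 itself, was lower in both, with log2 fold changes of -0.71 ± 0.08 (adjusted p = 9.03e-06) in NCI-H1944 and -0.72 ± 0.04 (adjusted p = 2.39e-09) in NCI-H647.

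Among the activator E2Fs, E2F2 was lower in both lines, E2F3 was higher in NCI-H647, and E2F1 did not pass. E2F1 (ENSG00000101412, chr20:33675477-33686385, GRCh38, minus strand) had 22.3 and 22.04 CPM after the inhibitor and 23.0 and 22.5 CPM after DMSO in NCI-H1944. Its NCI-H647 levels were 12.9 and 12.1 CPM after the inhibitor and 12.6 and 13.6 CPM after DMSO. The groups lie close in NCI-H1944 and overlap in NCI-H647. Its change was -0.03 ± 0.07 (adjusted p = 0.786) in NCI-H1944 and -0.06 ± 0.11 (adjusted p = 0.644) in NCI-H647.

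E2F2 (chr1:23506438-23531233, minus strand) is the lowest of the activators. It had 8.13 and 9.28 CPM after the inhibitor and 11.0 and 11.1 CPM after DMSO in NCI-H1944. In NCI-H647 it had 4.06 and 4.13 CPM after the inhibitor, against 6.62 and 5.66 CPM after DMSO. The groups did not overlap in either line. Its change was -0.35 ± 0.11 (adjusted p = 0.0236) in NCI-H1944 and -0.59 ± 0.18 (adjusted p = 0.0106) in NCI-H647. Counts were few, 56 in each treated library and 127 and 96 in the DMSO libraries of NCI-H647. In NCI-H1944 the adjusted p was 0.181 without the first MPS1i library, 0.0507 without the second DMSO library, 0.124 in DESeq2 and 0.109 with no low-count filter, so those settings end the call. In NCI-H647 it was 0.0927 with the first DMSO library left out and 0.115 in DESeq2.

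E2F3 (chr6:20401879-20493714, plus strand) had 39.2 and 37.8 CPM after the inhibitor and 35.8 and 36.4 CPM after DMSO in NCI-H1944. NCI-H647 cells had 65.5 and 64.7 CPM after the inhibitor and 57.2 and 59.6 CPM after DMSO. The treated libraries were the higher ones in both lines, by a narrow margin. The change was 0.09 ± 0.06 (adjusted p = 0.259) in NCI-H1944 and 0.16 ± 0.05 (adjusted p = 0.0170) in NCI-H647. That call ended with the first MPS1i library left out (adjusted p = 0.106), with the first DMSO library left out (0.149), in DESeq2 (0.174) and with no low-count filter (0.100).

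Of the atypical repressors, E2F8 was lower in NCI-H647 and E2F7 did not pass in either line. E2F8 (chr11:19224063-19241620, minus strand) had 7.48 and 6.57 CPM after the inhibitor, against 11.0 and 11.2 CPM after DMSO in NCI-H647. In NCI-H1944 it had 5.86 and 7.81 CPM after the inhibitor and 8.38 and 8.61 CPM after DMSO. The 2 treated NCI-H1944 libraries lie farther apart than the DMSO libraries do. The change was -0.65 ± 0.13 (adjusted p = 0.000540) in NCI-H647 and -0.32 ± 0.13 (adjusted p = 0.101) in NCI-H1944, where it passed only without the second MPS1i library (-0.53, adjusted p = 0.0148).

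E2F7 (chr12:77021248-77065569, minus strand) had 15.7 and 16.3 CPM after the inhibitor and 18.7 and 16.8 CPM after DMSO in NCI-H1944. NCI-H647 cells had 53.7 and 58.7 CPM after the inhibitor and 56.3 and 57.7 CPM after DMSO, so that the DMSO values lie within the treated range. Its change was -0.15 ± 0.09 (adjusted p = 0.236) in NCI-H1944 and -0.02 ± 0.06 (adjusted p = 0.790) in NCI-H647, where it was 0.028 with scaling by library totals alone.

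In the RB family, RBL1 and RBL2 were lower in NCI-H647, RBL2 alone was lower in NCI-H1944, and RB1 did not pass. RB1 (ENSG00000139687, chr13:48303744-48599436, plus strand) encodes the founding pocket protein. It had 72.7 and 63.4 CPM after the inhibitor and 72.0 and 73.3 CPM after DMSO in NCI-H1944. NCI-H647 cells had 70.8 and 68.3 CPM after the inhibitor and 68.3 and 72.4 CPM after DMSO. The groups overlap in both lines. The change was -0.09 ± 0.06 (adjusted p = 0.241) in NCI-H1944 and -0.01 ± 0.05 (adjusted p = 0.837) in NCI-H647. In NCI-H1944 one library sets the value, with -0.20 (adjusted p = 0.0113) without the first MPS1i library and 0.0038 (adjusted p = 0.971) without the second. The NCI-H647 value was 0.033 with scaling by library totals alone.

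RBL1, which encodes p107, is the family member most tied to dividing cells. RBL1 (ENSG00000080839, chr20:36996349-37095997, minus strand) had 23.4 and 26.0 CPM after the inhibitor, against 38.9 and 40.0 CPM after DMSO in NCI-H647. In NCI-H1944 it had 24.5 and 23.7 CPM after the inhibitor and 26.4 and 26.1 CPM after DMSO. The groups are wide apart in NCI-H647 and close in NCI-H1944. RBL1 was 1.59-fold lower in NCI-H647 (-0.67 ± 0.06, adjusted p = 4.34e-07), and its change in NCI-H1944 was -0.12 ± 0.07 (adjusted p = 0.225).

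RBL2, which encodes p130, is the pocket protein most abundant in resting cells. RBL2 (ENSG00000103479, chr16:53433977-53491648, plus strand) had 57.4 and 60.8 CPM after the inhibitor, against 79.6 and 79.4 CPM after DMSO in NCI-H647. In NCI-H1944 it had 87.6 and 81.1 CPM after the inhibitor, against 94.9 and 90.4 CPM after DMSO. No treated library reached a DMSO library in either line. RBL2 was 1.35-fold lower in NCI-H647 (-0.43 ± 0.05, adjusted p = 6.03e-06) and 1.10-fold lower in NCI-H1944 (-0.13 ± 0.05, adjusted p = 0.0399). The NCI-H1944 call ended with the second MPS1i library left out (-0.08, adjusted p = 0.281), with the first DMSO library left out (0.269), in DESeq2 (0.104) and with no low-count filter (0.209). Exons of RBL2 overlap 610 bases of AKTIP on the opposite strand, and whether counting used strand is not given in the sources used here. AKTIP itself changed by -0.16 ± 0.08 (adjusted p = 0.155) in NCI-H1944 and -0.13 ± 0.09 (adjusted p = 0.248) in NCI-H647.

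FOXM1 and MYBL2 were lower in both lines. FOXM1 (ENSG00000111206, chr12:2857680-2877174, minus strand), a forkhead factor active in G2 and mitosis, had 99.1 and 101.6 CPM after the inhibitor, against 150.7 and 149.0 CPM after DMSO in NCI-H1944. In NCI-H647 it had 99.1 and 94.4 CPM after the inhibitor, against 134.8 and 138.4 CPM after DMSO. The gap between groups is many times that between replicates in both lines. FOXM1 was 1.49-fold lower in NCI-H1944 (-0.58 ± 0.04, adjusted p = 4.38e-09) and 1.41-fold lower in NCI-H647 (-0.50 ± 0.05, adjusted p = 4.51e-07). Exons of FOXM1 overlap 781 bases of ITFG2 on the opposite strand. ITFG2 had 122 to 359 counts in a library and was lower too, with -0.42 ± 0.11 (adjusted p = 0.0126) in NCI-H1944 and -0.63 ± 0.11 (adjusted p = 0.000199) in NCI-H647. How far reads of one were counted for the other was not tested.

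MYBL2 (ENSG00000101057, chr20:43667019-43716495, plus strand) had 58.7 and 56.5 CPM after the inhibitor, against 99.8 and 97.0 CPM after DMSO in NCI-H647. In NCI-H1944 it had 49.8 and 47.4 CPM after the inhibitor, against 57.3 and 59.2 CPM after DMSO. The groups stand apart in both lines, and farther in NCI-H647. MYBL2 was 1.71-fold lower in NCI-H647 (-0.77 ± 0.05, adjusted p = 9.14e-09) and 1.20-fold lower in NCI-H1944 (-0.26 ± 0.05, adjusted p = 0.000822). It alone of the 10 also passed a test against a 1.5-fold minimum, in NCI-H647 (adjusted p = 0.00486).

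In CPM, 9 of the 10 genes had groups that did not overlap in NCI-H1944, 1 with MPS1i higher and 8 with MPS1i lower. This held for 61.0% of all genes tested there, 30.5% in the higher and 30.5% in the lower direction. In NCI-H647, 7 of the 10 did not overlap, 1 higher and 6 lower, beside 76.3% of all genes tested, 38.4% higher and 37.9% lower. With 2 libraries in a group such a split is common among all genes.

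**Figure D2:**
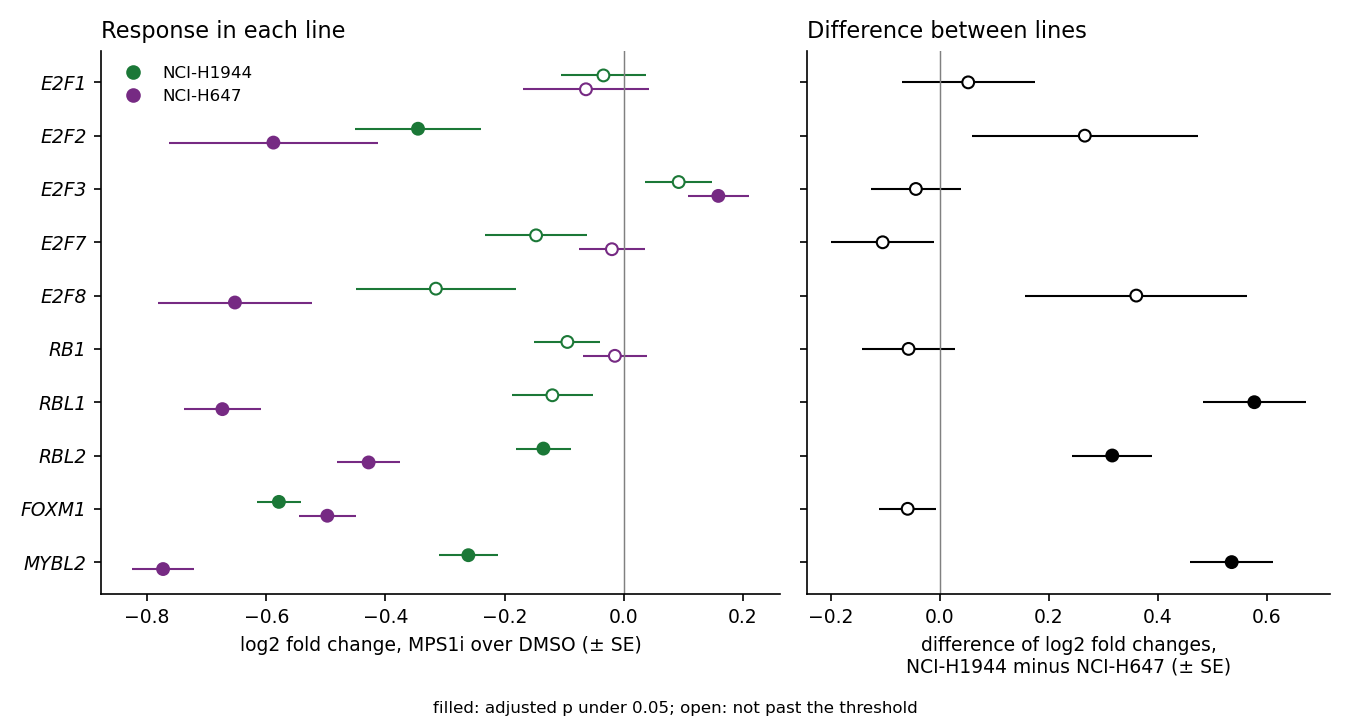
Left, log2 fold change of MPS1i over DMSO ± SE for each of the 10 genes in NCI-H1944 (green) and NCI-H647 (purple). Right, the difference of these changes, NCI-H1944 minus NCI-H647, ± SE from the joint fit; filled points passed an adjusted p of 0.05. RBL1, RBL2 and MYBL2 are the filled points on the right, and FOXM1 sits near 0 there at -0.06.

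Whether the lines responded differently was tested as the interaction of line and treatment in a joint fit of all 8 libraries over 12887 genes. RBL1, MYBL2 and RBL2 differed, each with the more negative change in NCI-H647. The difference, NCI-H1944 minus NCI-H647, was 0.58 ± 0.09 for RBL1 (adjusted p = 3.90e-05). It was 0.54 ± 0.08 for MYBL2 (adjusted p = 6.67e-06) and 0.32 ± 0.07 for RBL2 (adjusted p = 0.00137). Of the 10, 3 were called higher and 0 lower, beside 40.1% of all genes called in this test, 22.7% higher and 17.4% lower. The count among the 10 is thus near the share of all genes. FOXM1 had a difference of -0.06 ± 0.05 (adjusted p = 0.401), which passed only with scaling by library totals alone (-0.14, adjusted p = 0.0374). E2F8 had 0.36 ± 0.20 (adjusted p = 0.167), and passed only without the first MPS1i library of NCI-H1944 (0.55, adjusted p = 0.0257). E2F2 had 0.27 ± 0.21 (adjusted p = 0.328), and the other 4 genes lay between -0.10 and 0.05. The lines were sequenced with different kits, poly(A) selection in NCI-H1944 and ribosomal RNA depletion in NCI-H647, so line and kit cannot be told apart.

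Count ratios between relatives within 1 library do not depend on how libraries were scaled. Per 100 counts of RB1, RBL1 had 33.1 and 38.0 counts after the inhibitor and 56.9 and 55.3 after DMSO in NCI-H647. In NCI-H1944 the RBL1 ratio was 33.8 and 37.4 after the inhibitor and 36.6 and 35.6 after DMSO. The groups are apart in NCI-H647 and overlap in NCI-H1944.

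RBL2 had 81.1 and 89.0 counts per 100 of RB1 after the inhibitor and 116.5 and 109.8 after DMSO in NCI-H647. Its ratio in NCI-H1944 was 120.6 and 128.0 after the inhibitor and 131.8 and 123.3 after DMSO, again with overlap. The ratio of MYBL2 to FOXM1 moved in opposite directions in the lines. Per 100 counts of FOXM1, MYBL2 had 50.2 and 46.7 counts after the inhibitor and 38.0 and 39.7 after DMSO in NCI-H1944. In NCI-H647 it had 59.2 and 59.8 counts after the inhibitor and 74.0 and 70.1 after DMSO.

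Among the activators, E2F2 had 36.4 and 42.1 counts per 100 of E2F1 after the inhibitor and 48.0 and 49.4 after DMSO in NCI-H1944. In NCI-H647 the ratio was 31.5 and 34.2 after the inhibitor and 52.7 and 41.6 after DMSO. E2F3 moved the other way relative to E2F1, with the treated libraries above the DMSO libraries in both lines. Per 100 counts of E2F7, E2F8 had 13.9 and 11.2 counts after the inhibitor and 19.4 and 19.3 after DMSO in NCI-H647. The same ratio overlapped between groups in NCI-H1944, with 37.2 and 47.9 after the inhibitor and 44.9 and 51.2 after DMSO.

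**Figure D3:**
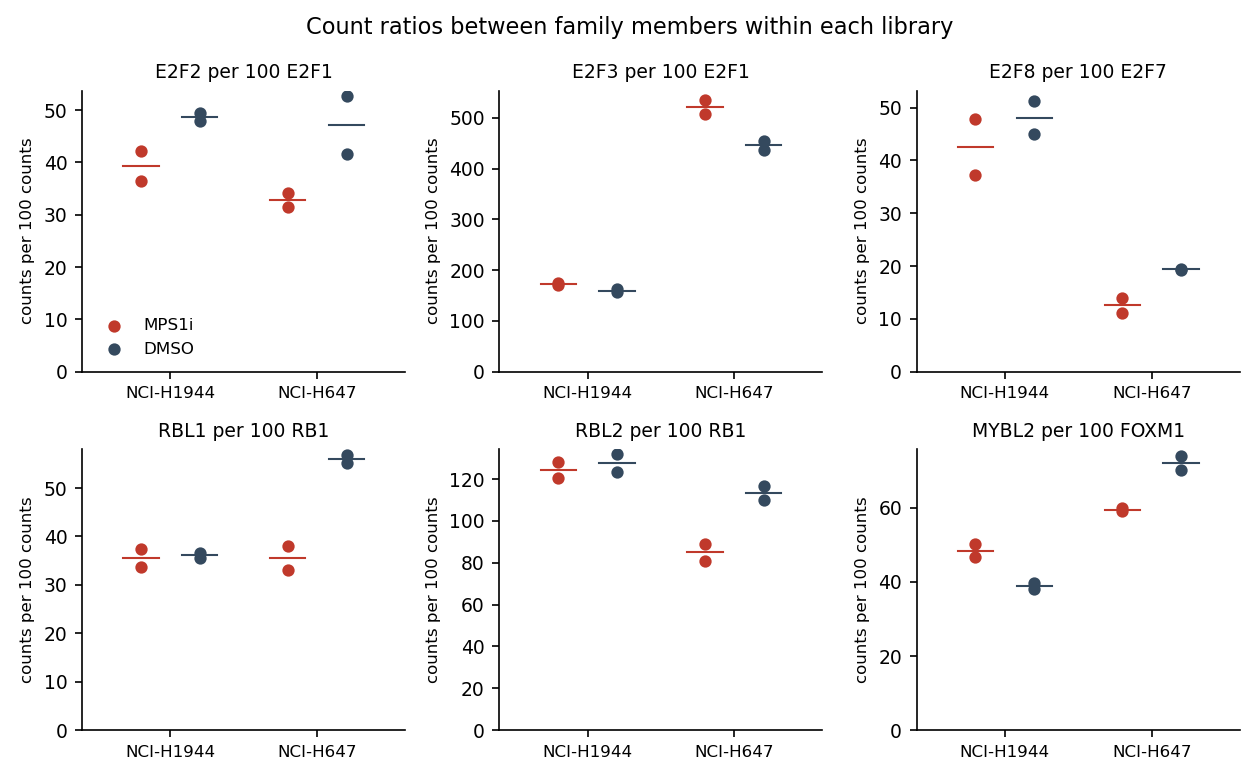
Counts of 1 gene per 100 counts of a relative in the same library, for 6 pairs, MPS1i libraries (red) left of DMSO libraries (dark) in each line; points are libraries, bars are means of 2 and axes start at 0. RBL1 and RBL2 relative to RB1 are lower after the inhibitor in NCI-H647 and overlap in NCI-H1944, and MYBL2 relative to FOXM1 goes up in NCI-H1944 and down in NCI-H647.

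Levels were compared between genes after division by the length of their GENCODE exons, in CPM per kilobase. The same lengths served both lines, though genes carry Ensembl identifiers in NCI-H647 and numeric ones of another kind in NCI-H1944. Whether the lengths match the exons counted in NCI-H1944 was not tested. Library kit differs between the lines too, so ranks that differ between them may not be biological. In NCI-H647, MYBL2 ranked first, with 21.1 and 20.3 CPM per kilobase after the inhibitor and 36.0 and 34.9 after DMSO. FOXM1 came next there, with 20.2 and 19.3 after the inhibitor and 27.5 and 28.3 after DMSO, so that the gap between them was within about 1 CPM per kilobase after the inhibitor. In NCI-H1944 the order was reversed, with FOXM1 at 20.2 and 20.7 after the inhibitor and 30.8 and 30.4 after DMSO. MYBL2 was at 17.9 and 17.1 after the inhibitor and 20.6 and 21.3 after DMSO there.

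E2F3 was the highest E2F in NCI-H647, at 12.7 and 12.5 CPM per kilobase after the inhibitor and 11.1 and 11.5 after DMSO. In NCI-H1944 E2F1 was the highest, at 8.92 and 8.81 after the inhibitor and 9.17 and 8.97 after DMSO. E2F2 and E2F8 were the 2 lowest of the 10 in every group. They did not differ beyond their spread in NCI-H1944, where E2F2 was at 1.49 and 1.70 and E2F8 at 1.41 and 1.89 after the inhibitor. RB1 and RBL2 overlapped after the inhibitor in NCI-H1944, at 11.3 and 9.83 for RB1 and 11.97 and 11.1 for RBL2. In DMSO-treated NCI-H647 cells E2F3, RB1 and RBL2 lay together between 10.6 and 11.5. These lengths pool all annotated isoforms, so a gene with rarely used exons is placed too low.

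Of the other E2F and DP subunits, which complete the E2F dimers, 1 was called higher and 2 lower in each line. In NCI-H1944 6 were tested (median log2 fold change -0.10) and in NCI-H647 5 (median 0.01). The shares of all genes called were 26.0% in NCI-H1944 and 54.4% in NCI-H647. In NCI-H647 this list is near that share. TFDP1, the main dimer partner, was lower, with -0.15 ± 0.04 (adjusted p = 0.00744) in NCI-H1944 and -0.53 ± 0.05 (adjusted p = 4.03e-07) in NCI-H647. TFDP2 was lower too, with -0.27 ± 0.07 in NCI-H1944 and -0.39 ± 0.06 in NCI-H647. E2F6, a repressor that does not bind RB proteins, was higher by 0.25 ± 0.07 (adjusted p = 0.0177) in NCI-H1944 and 0.42 ± 0.09 (adjusted p = 0.000708) in NCI-H647. E2F4, the E2F of the DREAM complex, had -0.04 ± 0.05 (adjusted p = 0.583) in NCI-H1944 and 0.01 ± 0.07 (adjusted p = 0.934) in NCI-H647. The NCI-H1944 counts of this list were 0 higher and 1 lower without the first MPS1i library, and 1 lower without either DMSO library. With no low-count filter none of the list was called in NCI-H1944, and limma-voom called 2 higher.

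Of 7 genes of the MuvB core and the other MYB factors, 1 was lower in NCI-H1944 and 3 lower and 1 higher in NCI-H647, with medians of -0.15 and -0.19. These shares are below the 26.0% of all genes called in NCI-H1944 and near the 54.4% called in NCI-H647. LIN9, a MuvB subunit, was the gene called in NCI-H1944 (-0.33 ± 0.09, adjusted p = 0.0114) and was lower in NCI-H647 as well (-0.19 ± 0.07, adjusted p = 0.0340). The NCI-H1944 count of 1 became 0 without the second MPS1i library, in DESeq2 and with no low-count filter. In NCI-H647, MYBL1, a relative of B-MYB, was lower (-0.34 ± 0.07), as was RBBP4, a histone-binding subunit (-0.21 ± 0.04), and LIN37 was higher by 0.56 ± 0.10 (adjusted p = 0.000182).

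Upstream of the RB proteins, 9 of 10 cyclins and kinases were tested in each line. In NCI-H1944 3 were higher and 3 lower, and in NCI-H647 2 were higher and 4 lower, with medians of 0.07 and -0.17. Of all genes tested, 26.0% were called in NCI-H1944 and 54.4% in NCI-H647, and the NCI-H647 count of this list is near that share. CCND1 (cyclin D1), which opens RB phosphorylation, was higher by 0.36 ± 0.03 (adjusted p = 5.06e-08) in NCI-H1944 and 0.47 ± 0.05 (adjusted p = 5.81e-07) in NCI-H647. Of its partners, CDK4 was lower, with -0.24 ± 0.04 in NCI-H1944 and -0.48 ± 0.05 in NCI-H647. CDK6 was higher in NCI-H1944 (0.31 ± 0.05, adjusted p = 9.89e-05) and lower in NCI-H647 (-0.24 ± 0.03, adjusted p = 3.68e-05). CCNA2 (cyclin A2), an E2F and FOXM1-MuvB target, had 26.7 and 29.6 CPM after the inhibitor, against 50.9 and 46.7 CPM after DMSO in NCI-H1944. NCI-H647 cells had 103.4 and 102.8 CPM after the inhibitor, against 232.6 and 222.2 CPM after DMSO, 2.21-fold lower. CDK1, the mitotic kinase, was lower, with -0.56 ± 0.04 in NCI-H1944 and -0.64 ± 0.05 in NCI-H647.

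Of the CDK inhibitors, 5 of 7 were tested in each line. In NCI-H1944 1 was higher and 1 lower, and in NCI-H647 2 were higher and 1 lower (medians -0.16 and 0.21). All genes were called at 26.0% and 54.4%, and the NCI-H647 count of this list is near that share. CDKN1A (p21), a p53 target that keeps RB proteins unphosphorylated, had 56.0 and 60.4 CPM after the inhibitor, against 11.1 and 12.7 CPM after DMSO in NCI-H647, 4.92-fold higher. In NCI-H1944 it had 786.4 and 806.4 CPM after the inhibitor and 741.3 and 737.8 CPM after DMSO (0.11 ± 0.02). CDKN2C (p18), itself an E2F target, was lower, with -0.75 ± 0.11 in NCI-H1944 and -0.71 ± 0.08 in NCI-H647. Without the first MPS1i library of NCI-H647, and likewise in DESeq2, 1 inhibitor gene was called higher there in place of 2. CDKN2A and CDKN2B had 0 counts in all 8 libraries, which allows up to 0.225 CPM in the shallowest library, for counting error only.

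The list of G1/S targets of E2F was lower in 23 of 43 genes in NCI-H1944 and in 43 of 43 in NCI-H647, with none higher. Of all genes tested, 12.4% and 27.0% were called lower in these lines. The list was chosen with earlier results of these data known, so its counts are a description. The median log2 fold changes were -0.21 and -0.76, beside 0.00 and 0.01 over all genes tested. TYMS (thymidylate synthase) was lower, with -0.35 ± 0.04 (adjusted p = 1.65e-05) in NCI-H1944 and -0.91 ± 0.05 (adjusted p = 8.52e-10) in NCI-H647. HELLS, a chromatin remodeller, had 41.9 and 45.0 CPM after the inhibitor, against 99.3 and 100.7 CPM after DMSO in NCI-H647. MCM4, a subunit of the replicative helicase, was 1.71-fold lower in NCI-H647 and changed by -0.07 ± 0.04 (adjusted p = 0.148) in NCI-H1944. The NCI-H1944 count was 15 without the second MPS1i library, 15 without the first DMSO library, 12 in DESeq2 and 10 with no low-count filter. In the test of the difference, 34 of the 43 had a more negative change in NCI-H647, a direction in which 22.7% of all genes were called, and none was called in the other. E2F letters were found in 20 of the 37 promoters matched for this list, or 54.1%, beside 3.31% of 35116 promoters. Only the first entry of each gene was counted here. The list holds known E2F targets, so a high share is largely built in.

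The list of G2/M targets of MuvB, B-MYB and FOXM1 was lower in 38 of 39 genes in NCI-H1944 and in 39 of 39 in NCI-H647. Its medians were -0.73 and -0.81, and 12.4% and 27.0% of all genes tested were called lower. This list too was chosen with earlier results of these data known. PLK1, a mitotic kinase, had 34.8 and 33.4 CPM after the inhibitor, against 71.3 and 70.0 CPM after DMSO in NCI-H1944, 2.07-fold lower. CCNB1 (cyclin B1) was 1.90-fold lower in NCI-H1944 and 1.93-fold lower in NCI-H647, and CENPF, a kinetochore protein, had 385.7 and 383.6 CPM after the inhibitor, against 759.8 and 777.2 CPM after DMSO in NCI-H647. TOP2A, the topoisomerase that untangles sister chromatids, was lower, with -0.84 ± 0.04 in NCI-H1944 and -0.91 ± 0.03 in NCI-H647. In the test of the difference, 10 of the 39 had a more negative change in NCI-H647 and 3 in NCI-H1944, beside 22.7% and 17.4% of all genes in those directions, so the first is near the share of all genes and the second below it. TTTGAA was found in 25 of the 34 promoters matched for this list, or 73.5%, beside 15.2% of all promoters. The list holds known MuvB targets, so a high share is largely built in here too. E2F letters were in 2 of the 34, beside 3.31% of all promoters.

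**Figure D4:**
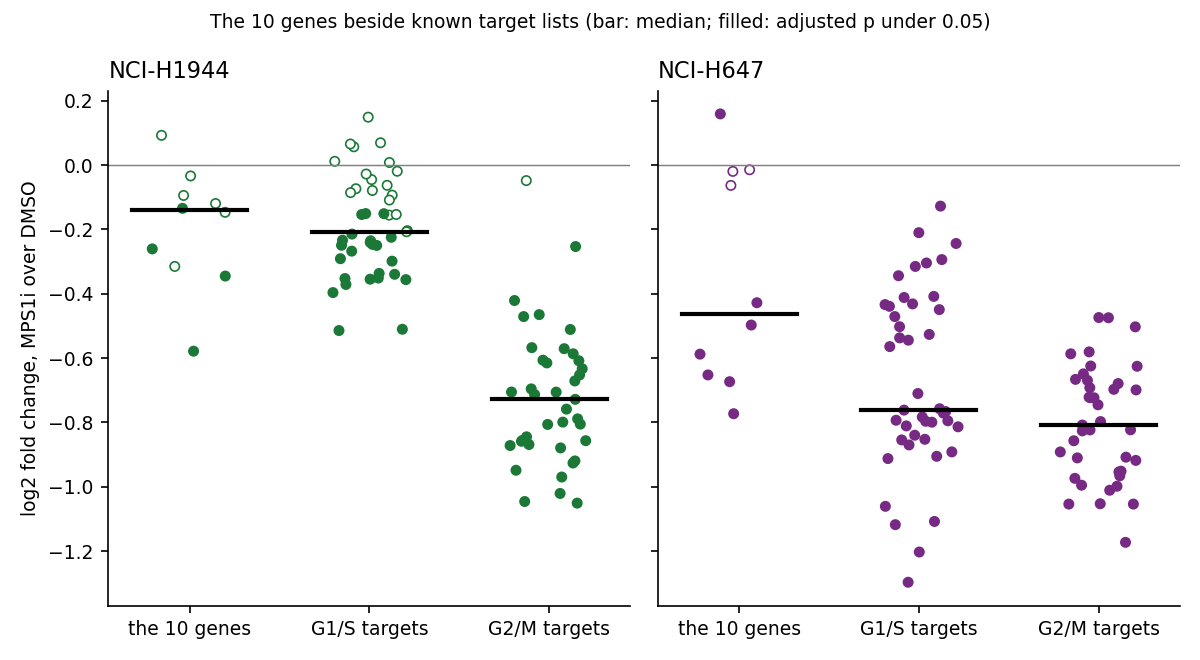
Log2 fold change of MPS1i over DMSO for the 10 genes and for the G1/S and G2/M target lists, NCI-H1944 left and NCI-H647 right. Each point is a gene, filled if its adjusted p was under 0.05, and the bar is the median. The G2/M medians are near each other in the lines, -0.73 and -0.81, while the G1/S medians are -0.21 and -0.76.

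Over the 8 libraries, with each gene centred within its line, the log2 CPM of RBL1 and RBL2 correlated at r = 0.979. MYBL2 correlated with RBL2 at 0.967, with RBL1 at 0.965 and with FOXM1 at 0.853. E2F3 ran against E2F2 at -0.994, though E2F2 rests on only 56 counts in each treated NCI-H647 library. RB1 correlated with no other of the 10 above 0.533, which was with E2F1. These values share libraries, treatment and scaling, and are given as a description. By the same measure over 8813 other genes, those most like FOXM1 were ZNF664, INCENP and PYCR1, with r from 0.997 to 0.998. For MYBL2 they were RPL9, SRSF1 and RPL6, and for RBL1 DHX33, CASP6 and SUPT16H, with r of 0.998 throughout. Such likeness was common, since 962 genes passed 0.95 with MYBL2, 752 with RBL1 and 310 with FOXM1, against 3 with E2F1 and 0 with RB1 and E2F7.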

How the data were processed

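The authors deposited raw counts for each gene, whole numbers with no scaling, and each line has its own table. Per the labels' protocols, NCI-H1944 libraries were stranded and poly(A)-selected, and NCI-H647 libraries were stranded, depleted of ribosomal RNA and converted for an MGI sequencer. GRCh38, the aligners HISAT2 and STAR, the trimmers cutadapt, Trimmomatic and Trim Galore, and the counters StringTie and featureCounts appear in the submitters' processing notes. Which made which table, and the versions and strand setting, is not given in the sources used here.

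Each line was fitted alone in R 4.3.3 with edgeR 4.0.16 (filterByExpr, minimum count 10, minimum total 15; TMM; quasi-likelihood test; Benjamini-Hochberg over all genes; threshold 0.05). The difference between lines was the interaction in a joint fit by symbol. The standard error was the log2 fold change divided by the square root of F. Alternatives were DESeq2 1.42.0, limma-voom (limma 3.58.1), other scalings and filters, a 1.5-fold minimum (glmTreat), a replicate block and leaving out each library. Correlations used log2(CPM + 0.5) and genes with a mean of at least 3 in each line. The 10 genes were kept whatever their level, and E2F2 lay below that minimum in NCI-H647. The fit was run on simulated counts with far fewer changed genes than were called here, so that run gives no error rate for these data. The 10 genes and all lists were chosen with earlier results of these data known. The rule for list genes took up to 4 with the smallest adjusted p per list and line, with CDKN1A and TTK as context, and the text gives some of these. Outside it are E2F4, CDK6, CDKN2A, CDKN2B, the genes overlapping FOXM1 and RBL2, and some values given in the other line for comparison. The count ratios are outside it too and were chosen after values were seen. Replicate numbers were not taken as pairs. One result is not reported here.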

Additional observations from a re-analysis of the deposited data

Results flagged for a closer look

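For 3 genes the change after the inhibitor differed between the lines by a test of the difference itself, the interaction of line and treatment in edgeR's quasi-likelihood test. RBL1 had a difference, NCI-H1944 minus NCI-H647, of 0.58 on the log2 scale (adjusted p = 3.90e-05), with changes of -0.12 in NCI-H1944 and -0.67 in NCI-H647. MYBL2 had a difference of 0.54 (adjusted p = 6.67e-06), with changes of -0.26 and -0.77. RBL2 had a difference of 0.32 (adjusted p = 0.00137), with changes of -0.13 and -0.43. Each kept its sign in all 16 alternatives and passed in 15 of them, all but the test against a 1.5-fold minimum. Library kit and depth differ between the lines together with the line, and their part in these differences was not tested.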

How the results depend on the processing

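Depth limits low genes, such as E2F2 with 56 counts in each treated NCI-H647 library. Of the genes called lower, FOXM1 and MYBL2 in both lines and RBL1, RBL2 and E2F8 in NCI-H647 passed in every alternative but the 1.5-fold minimum, which MYBL2 also passed in NCI-H647. In NCI-H1944 the 4 calls became 2 in DESeq2, 2 with no low-count filter and 0 against the 1.5-fold minimum. When a library was left out there, the genes called changed. E2F2 or RBL2 dropped out each time, while RB1 came in without the first MPS1i library and E2F8 without the second. In NCI-H647 the 7 calls became 1 against the 1.5-fold minimum, which was lower, and were 5 to 7 when a library was left out. The 1 call higher there, E2F3, became 0 in DESeq2, with no filter and against the minimum, and was 0 to 1 when a library was left out. The 3 differences between lines became 0 against the minimum, and 1 further gene, FOXM1, was called lower with scaling by library totals alone.

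Over all genes, calls in NCI-H1944 numbered 4346 and became 2325 with no filter and 427 against the minimum. In NCI-H647 they numbered 8184 and became 5446 in DESeq2 and 1256 against the minimum, and those of the difference fell to 517 against the minimum. G1/S targets called lower in NCI-H1944 became 12 in DESeq2, 10 with no filter and 0 against the minimum, and were 15 to 19 when a library was left out. Against the minimum they were 22 in NCI-H647, G2/M targets were 16 in NCI-H1944 and 24 in NCI-H647, and 7 G1/S targets still differed between lines. A minimum asks more of each gene and its loss of calls is built in; the cause of the other changes was not tested.

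Values near 0 changed sign. With scaling by library totals alone E2F7 was 0.028 and RB1 0.033 in NCI-H647, and the E2F1 difference between lines was -0.032. When a library was left out, the NCI-H1944 change of RB1 ran from -0.20 to 0.0038, its NCI-H647 change from -0.060 to 0.022, the NCI-H647 change of E2F7 from -0.094 to 0.033, and the RB1 difference from -0.16 to 0.039. Same-numbered replicates did not deviate together (correlation across genes 0.038 in NCI-H1944 and -0.017 in NCI-H647), and with the replicate block 4 and 7 of the 10 genes were called, as without it, with 4817 and 8434 over all genes.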
